A study of Mus musculus with 9 samples.

Results

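Bdnf, its receptor gene Ntrk2, the related neurotrophin gene Ntf3 with its receptor gene Ntrk3, and 6 genes for proteins that neurons secrete or display in response to activity (Vgf, Scg2, Nptx1, Nptx2, Nrn1 and Inhba) were followed across the mouse hippocampus after mild traumatic brain injury. These 10 genes were taken by symbol from a table of 55421 genes and matched to 10 Ensembl identifiers. All 10 were among the 20032 genes with enough counts to be tested. The study sequenced RNA from 9 libraries in 3 groups of 3: wild-type (WT) mice after a sham operation, WT mice after one mild controlled cortical impact (mTBI), and Tmsb4x conditional knockout (CKO) mice after the same impact. Tmsb4x encodes thymosin beta-4, a protein that binds actin monomers. All mice carried a tdTomato reporter labelled as neuronal, and live tdTomato-positive cells were sorted from the dissociated hippocampus. The labels give no strain, age, sex, driver of the knockout or of tdTomato, or time from impact to tissue collection. They give no CKO sham group, so injury in the knockout was measured only against the sham group of the other genotype. They give 3 mice per group without saying that each library came from 1 mouse, so p-values measure only the spread between these libraries, which may be technical.

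Neurotrophins are secreted as precursors, cleaved to mature dimers, and bind Trk receptor tyrosine kinases: BDNF acts mainly through TrkB (Ntrk2) and neurotrophin-3 mainly through TrkC (Ntrk3). In the hippocampus, Bdnf is transcribed from several alternative starts, some of which respond to calcium entry and CREB, and its product supports synaptic plasticity and neuronal survival. VGF and secretogranin II (Scg2) are cargo of dense-core vesicles, the neuronal pentraxins (Nptx1, Nptx2) gather AMPA receptors at synapses, neuritin (Nrn1) is a membrane-anchored factor that promotes neurite growth, and Inhba encodes the subunit of activin A, a ligand of the TGF-beta family. Transcription of most of these genes is known to respond to neuronal activity.

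Of the 10 genes, 5 had entries in the RefSeq promoter table for GRCm38.p6, with 12 transcription starts among them, 7 of Bdnf and 2 of Ntf3. The 250 bases before each start were searched on both strands for the cyclic AMP response element TGACGTCA, its core TGACG (which the full element contains on both strands), the AP-1 sites TGAGTCA and TGACTCA, and the EGR site GCGTGGGCG. A full element was present in 1 window, that of Scg2, and a core in 2, that of Scg2 and that of 1 Bdnf start. Both are shown because they are the only windows of these genes that held any searched motif, with the motif in capitals. Among all 32851 promoters of the table, 1.55% held the full element, 17.8% the core, 4.46% an AP-1 site and 0.536% the EGR site. The Scg2 window is chr1:79440027-79440276 on the minus strand, and its element lies 61 to 68 bases before the RefSeq start. The GENCODE model of Scg2 starts farther upstream, at 79440120, so the element lies inside that gene model. The Bdnf window is chr2:109692186-109692435 on the plus strand, and its core, read here as CGTCA because it lies on the opposite strand, is 31 to 35 bases before the start.
Scg2: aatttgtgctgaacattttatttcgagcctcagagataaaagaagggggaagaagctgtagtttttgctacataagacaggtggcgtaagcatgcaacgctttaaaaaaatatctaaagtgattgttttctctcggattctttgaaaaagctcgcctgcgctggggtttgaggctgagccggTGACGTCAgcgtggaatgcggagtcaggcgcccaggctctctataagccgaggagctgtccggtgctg
Bdnf: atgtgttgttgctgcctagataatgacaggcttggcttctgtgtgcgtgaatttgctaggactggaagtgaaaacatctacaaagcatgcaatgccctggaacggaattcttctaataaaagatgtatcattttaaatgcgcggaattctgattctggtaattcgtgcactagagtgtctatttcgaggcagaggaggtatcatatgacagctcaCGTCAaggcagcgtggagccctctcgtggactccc
A match describes letters only. Gene counts sum over all starts of a gene, so the use of this or any other Bdnf start was not measured.

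The libraries held 36452443 to 39590872 counts, where a count is 1 sequenced mate assigned to the exons of a gene. Tmsb4x, the targeted gene, stood at 2.72, 1.68 and 2.22 CPM (counts scaled to a common library size) in the libraries labelled WT sham, at 899, 552 and 297 in the WT mTBI libraries and at 1.83, 2.79 and 2.77 in the CKO mTBI libraries. The libraries labelled WT sham were thus at the level of the knockout libraries, which goes against their genotype label, and every difference from them below is a difference from libraries so labelled. Those 3 libraries also differed little from one another, with a biological coefficient of variation of 3.26% against 19.6% in WT mTBI and 18.7% in CKO mTBI. WT mTBI replicate 1 stood apart: the rank correlation of its log ratio to the mean library with exon length across 20006 genes was -0.29, against 0.008 to 0.106 in the other 8. Markers of neurons, glia, vessels and immune cells were all above 0 in every library. The 9 neuron markers summed to 11792 to 12064 CPM in the sham-labelled libraries, 10005 to 11709 in WT mTBI and 11163 to 11579 in CKO mTBI, with Camk2a and Snap25 the most abundant. The 8 astrocyte markers, led by Slc1a2 and Aldoc, summed to 5148 to 5239, 4146 to 4845 and 4474 to 5088 CPM in the same order, so glial RNA was present in the sorted cells. The 10 choroid plexus and ependyma markers, led by Ttr and Enpp2, summed to 231 CPM in each sham-labelled library, 4403 to 6174 in WT mTBI and 243 to 4986 in CKO mTBI, and the low CKO mTBI library was replicate 1. Of these 10 markers, 6 passed as higher in WT mTBI and 1 (Otx2) in CKO mTBI, each against the sham-labelled libraries (edgeR quasi-likelihood test, adjusted p under 0.05). The 8 markers of thalamus, striatum and cortex, led by Prkcd and Tbr1, summed to 154 to 158, 199 to 257 and 223 to 265 CPM, and 1 of them (Prkcd) passed as higher in CKO mTBI against the sham-labelled libraries. In such bulk libraries, fewer cells of a type and less RNA per cell cannot be told apart.

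Per kilobase of exon, Nptx1 was the most abundant of the 10 genes at 111 ± 11.7 CPM per kb (mean ± SD, n = 9 libraries). Next came Scg2 at 68.6 ± 12.3, Vgf at 54.8 ± 8.58 and Nrn1 at 51.4 ± 3.02 CPM per kb. The ranges of neighbours in this order overlapped from Nptx1 down to Nrn1. Ntrk2 followed at 32.6 ± 2.88 CPM per kb, below Nrn1 in every library and above Ntrk3, which stood at 9.80 ± 1.60 CPM per kb. Nptx2 at 7.93 ± 1.66, Bdnf at 5.63 ± 1.00 and Ntf3 at 4.00 ± 0.737 CPM per kb were lower, and each of their ranges overlapped that of its neighbour. Inhba was the lowest at 1.02 ± 0.314 CPM per kb, with a range that did not reach that of Ntf3. The receptor genes thus exceeded their ligand genes on this scale in every library, Ntrk2 over Bdnf and Ntrk3 over Ntf3, and Nptx1 exceeded its family member Nptx2. Exon length here counts every annotated exon base of a gene, 19292 for Ntrk2 and 30170 for Ntrk3, and the order depends on it. In CPM without that division, Ntrk2 was the highest of the 10, with a mean of 628 beside 578 for Nptx1.

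**Figure D1:**
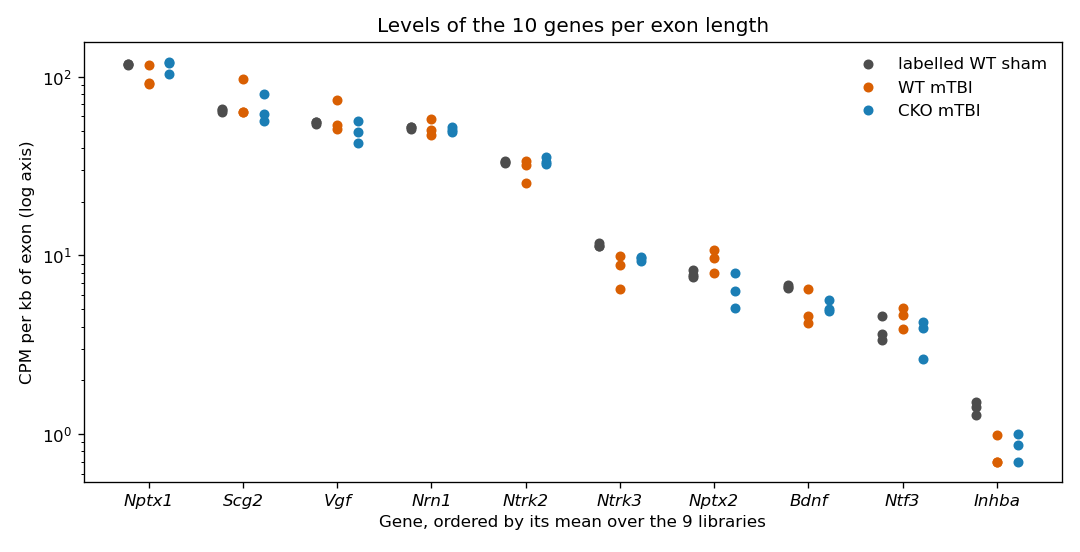
CPM per kilobase of exon (log axis) of the 10 genes in each of the 9 libraries, coloured by group, ordered by the mean over the libraries. Nptx1 is highest at a mean of 111 and Inhba lowest at 1.02 CPM per kb.

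Across the groups, none of the 10 genes passed an adjusted p of 0.05 in any comparison (edgeR quasi-likelihood test, Benjamini-Hochberg over 20032 genes). DESeq2 called 2 of them lower in WT mTBI than in the sham-labelled libraries (Ntrk3 and Inhba), limma-voom with sample weights 3 (also Bdnf), and each called 1 (Inhba) lower in CKO mTBI than in the sham-labelled libraries. In both comparisons these 2 tools also called more of all genes than edgeR did, with the numbers given at the end. In edgeR, 0.509% of all tested genes passed between WT mTBI and the sham-labelled libraries, 77 higher and 25 lower. An unadjusted p under 0.05 was reached by 4 of the 10 genes in this comparison (Bdnf, Ntrk3, Nptx1 and Inhba, all lower in WT mTBI) and by 13.2% of all tested genes. For the same 4 genes, every WT mTBI library lay below every sham-labelled library, as did 11.5% of all tested genes. The median difference of the 10 genes was -0.07 on the log2 scale, beside 0.02 over all tested genes. Between CKO mTBI and the sham-labelled libraries, 0.0699% of all tested genes passed, an unadjusted p under 0.05 was reached by 2 of the 10 (Bdnf and Inhba) and by 7.20% of all tested genes, and every CKO mTBI library lay below every sham-labelled one for 3 of the 10 genes (Bdnf, Ntrk3 and Inhba), beside 8.4% of all tested genes. Both comparisons share the sham-labelled libraries. Bdnf, Ntrk3 and Inhba were therefore below all 3 sham-labelled libraries in all 6 injured libraries, as were 3.99% of all tested genes. Exact two-sided permutation tests of 3 against 3 libraries cannot go below p = 0.1.

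**Figure D2:**
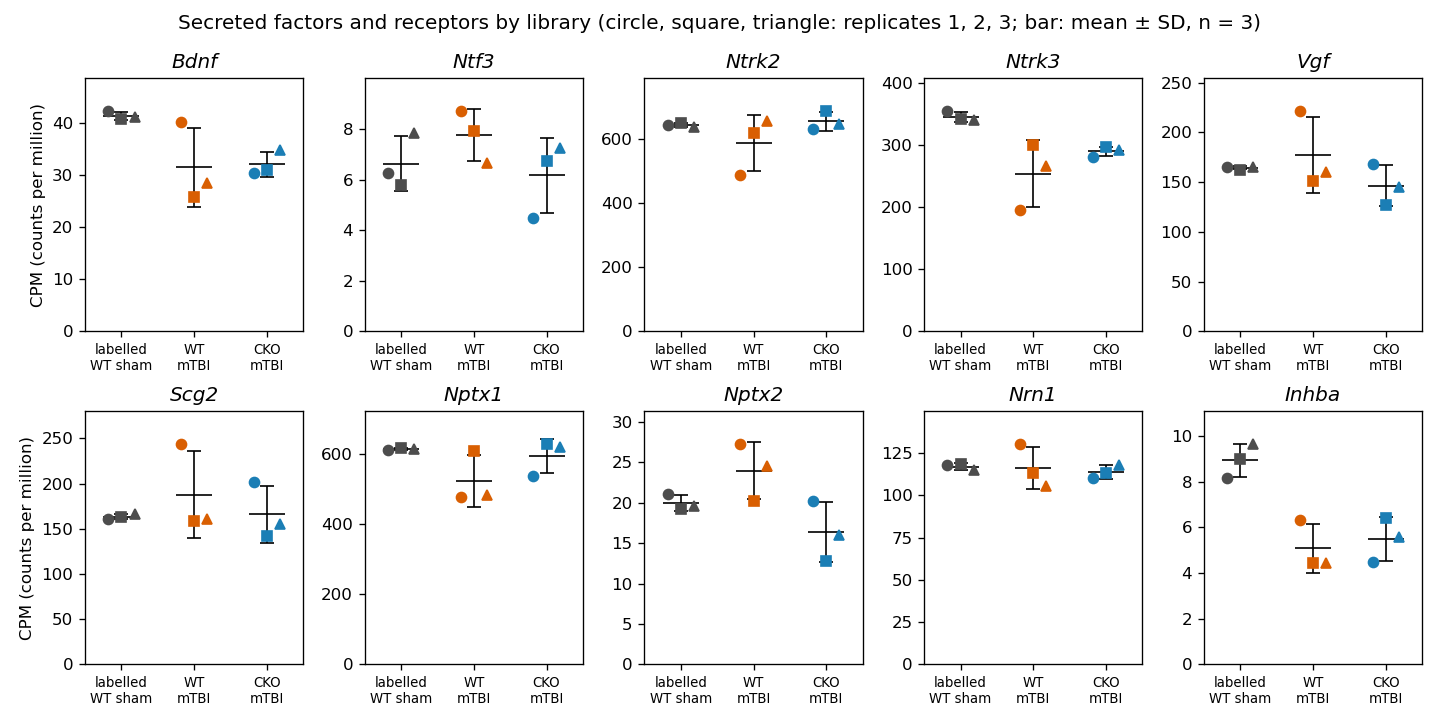
CPM of the 10 genes in each library (circle, square and triangle for replicates 1, 2 and 3), with the mean and SD of each group of 3 as black bars and every axis starting at 0. Bdnf, Ntrk3 and Inhba lie below the sham-labelled libraries in all 6 injured libraries. WT mTBI replicate 1 is the highest library for Ntf3, Vgf, Scg2, Nptx2 and Nrn1, which have the shortest exon models of the 10.

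Bdnf (ENSMUSG00000048482, GRCm38 chr2:109674700-109727007, plus strand) stood at 42.2, 40.7 and 41.2 CPM in the sham-labelled libraries. The WT mTBI libraries held 40.1, 25.9 and 28.6 CPM and the CKO mTBI libraries 30.4, 31.1 and 34.8 CPM. All 6 injured libraries lay below the 3 others, WT mTBI replicate 1 by a small margin and the remaining 5 by more. The mean was 41.4 ± 0.782 CPM in the sham-labelled libraries, 31.5 ± 7.58 in WT mTBI and 32.1 ± 2.41 in CKO mTBI (SD, n = 3 each). The edgeR log2 difference was -0.39 (SE 0.14, 95% interval -0.70 to -0.09) with an adjusted p of 0.265 for WT mTBI against the sham-labelled libraries, a level 23.8% lower. Against the same libraries, CKO mTBI differed by -0.37 (SE 0.14, 95% interval -0.67 to -0.06) with an adjusted p of 0.549. Between CKO mTBI and WT mTBI the difference was 0.02 (SE 0.14, 95% interval -0.28 to 0.33) with an adjusted p of 0.966. The first of these depended on 1 library: without WT mTBI replicate 1 it was -0.60 and passed at an adjusted p of 0.0199, and the adjusted p over all alternatives ranged from 0.00202 to 1. With 1 library left out at a time, the WT mTBI difference of Bdnf ranged from -0.60 to -0.28, so other libraries moved it toward 0. In GENCODE M21, an antisense gene, Gm45346, overlaps 896 of the 6217 exon bases of Bdnf. Counting ignored strand. If the annotation used for counting holds the same overlap, reads in the shared bases could be given to neither gene.

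Ntf3, the gene for neurotrophin-3 (ENSMUSG00000049107, GRCm38 chr6:126101412-126166910, minus strand), was expressed at 6.25, 5.78 and 7.85 CPM in the sham-labelled libraries, 8.69, 7.92 and 6.67 in WT mTBI and 4.49, 6.75 and 7.24 in CKO mTBI. The 3 groups overlapped, and the lowest value was CKO mTBI replicate 1. Counts ranged from 172 to 339 per library. The log2 difference was 0.23 (SE 0.20, 95% interval -0.20 to 0.66) with an adjusted p of 0.633 in WT mTBI against the sham-labelled libraries and -0.33 (SE 0.20, 95% interval -0.76 to 0.10) with an adjusted p of 0.74 in CKO mTBI against WT mTBI (edgeR). In WT mTBI against the sham-labelled libraries, Bdnf and Ntf3 thus had estimates of opposite sign, and neither passed. Whether these genes differed from each other was not tested.

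Ntrk2, the TrkB gene (ENSMUSG00000055254, GRCm38 chr13:58806569-59133970, plus strand), was measured at 643, 649 and 638 CPM in the sham-labelled libraries, 488, 618 and 655 in WT mTBI and 631, 685 and 646 in CKO mTBI. WT mTBI replicate 1 was the lowest and the other 8 libraries lay within a narrow band. Its log2 difference was -0.13 (SE 0.10, 95% interval -0.35 to 0.09) with an adjusted p of 0.586 in WT mTBI and 0.02 (SE 0.10, 95% interval -0.19 to 0.24) with an adjusted p of 0.999 in CKO mTBI, each against the sham-labelled libraries. Ntrk2 is also transcribed in astrocytes, as a form without the kinase domain, and gene counts do not separate the forms. Its exon model of 19292 bases is among the 2 longest of the 10 genes, and with the trend on exon length removed from each library the WT mTBI difference was 0.08, on the other side of 0. Without WT mTBI replicate 1 it was -0.01.

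Ntrk3, the TrkC gene (ENSMUSG00000059146, GRCm38 chr7:78175959-78738012, minus strand), held 354, 341 and 339 CPM in the sham-labelled libraries. Values were 195, 299.9 and 265 CPM in WT mTBI and 281, 296 and 292 CPM in CKO mTBI. Every injured library was below every sham-labelled one, with WT mTBI replicate 1 far below the rest and the 3 CKO mTBI libraries close together. On the log2 scale the difference was -0.44 (SE 0.13, 95% interval -0.72 to -0.17) with an adjusted p of 0.163 in WT mTBI, a level 26.5% lower, and -0.25 (SE 0.13, 95% interval -0.53 to 0.02) with an adjusted p of 0.745 in CKO mTBI. Ntrk3 has the longest exon model of the 10 genes, 30170 bases, and the library with the lowest value is the one whose counts declined with exon length. With that trend removed the WT mTBI difference was -0.15 with an adjusted p of 0.272, and without WT mTBI replicate 1 it was -0.29 with an adjusted p of 0.0619. The adjusted p over all alternatives ranged from 0.00549 to 1.

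Of the other genes for neurotrophin ligands, receptors and processing enzymes, 12 of 14 were tested and 0 passed in any comparison; 3, 0 and 2 of the 12 reached an unadjusted p under 0.05 (edgeR) in WT mTBI against the sham-labelled libraries, CKO mTBI against WT mTBI and CKO mTBI against the sham-labelled libraries. Over all tested genes these shares were 13.2%, 6.60% and 7.20%, against which the counts of this and the following lists are to be read. Genes named from these lists are those with the lowest p-values, so separated groups are more likely among them by that choice. Of all tested genes, 3.99% were below every sham-labelled library in all 6 injured libraries and 3.64% above. In WT mTBI, 3 of the 12 had higher and 9 lower estimates than in the sham-labelled libraries, with a median log2 difference of -0.12. Ngfr, the gene for the neurotrophin receptor that lacks a kinase, was low at 1.79, 1.46 and 1.78 CPM in the sham-labelled libraries, 2.10, 3.29 and 3.73 in WT mTBI and 2.35, 2.12 and 3.72 in CKO mTBI. Its injured libraries were all above the sham-labelled ones, and its log2 difference in WT mTBI was 0.86 (adjusted p = 0.227), which passed under voom but not under DESeq2. Sorcs2, a sorting receptor that binds the BDNF precursor together with that receptor, had values of 84.6, 82.5 and 81.0 CPM, then 49.0, 73.9 and 69.8 in WT mTBI and 76.0, 62.6 and 69.2 in CKO mTBI. All 6 injured libraries lay below the others, with a log2 difference of -0.36 in WT mTBI (adjusted p = 0.278). Sort1, the gene for sortilin, which sorts the BDNF precursor into the regulated secretory pathway, differed by 0.19 between CKO mTBI and WT mTBI, and Plat, the gene for tissue plasminogen activator, by 0.18 (adjusted p = 0.732 and 0.739).

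Among 30 genes of Trk receptor signalling, 0 passed in any comparison, 3, 3 and 2 reached an unadjusted p under 0.05 (edgeR, comparisons in the order above), and the median log2 difference was -0.04 in WT mTBI against the sham-labelled libraries and 0.02 in CKO mTBI against WT mTBI. Slitrk5, which encodes a membrane partner of TrkB, held 105, 105 and 98.8 CPM in the sham-labelled libraries, 77.3, 90.0 and 78.5 in WT mTBI and 83.8, 93.9 and 91.4 in CKO mTBI. Its injured libraries were all lower, with a log2 difference of -0.33 in WT mTBI (adjusted p = 0.105), which DESeq2 and voom called. Map2k2, a kinase of the MAP kinase cascade downstream of Trk receptors, differed by 0.30 in WT mTBI against the sham-labelled libraries and by -0.27 in CKO mTBI against WT mTBI, and the small GTPase gene Hras by 0.28 and -0.28 (adjusted p from 0.241 to 0.732 for the 4 values). For both genes the highest of the 9 libraries was WT mTBI replicate 1.

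Vgf, whose product is cleaved to several neuropeptides (ENSMUSG00000037428, GRCm38 chr5:137026392-137033351, plus strand), was at 166, 162 and 165 CPM in the sham-labelled libraries, 221, 151 and 159.9 in WT mTBI and 168, 127 and 145 in CKO mTBI. WT mTBI replicate 1 was above every other library, while WT mTBI replicates 2 and 3 were below the sham-labelled ones. The log2 difference was 0.11 (SE 0.14, 95% interval -0.20 to 0.41) with an adjusted p of 0.755 in WT mTBI against the sham-labelled libraries. It was -0.08 without WT mTBI replicate 1, so this library set its sign. Between CKO mTBI and WT mTBI the difference was -0.27 (SE 0.14, 95% interval -0.58 to 0.03) with an adjusted p of 0.732.

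Scg2, the gene for secretogranin II and the one with a full response element in its promoter window (ENSMUSG00000050711, GRCm38 chr1:79434669-79440120, minus strand), had a similar order among the WT mTBI libraries. It held 161, 163 and 167 CPM in the sham-labelled libraries, 243, 159 and 161 in WT mTBI and 202, 142 and 155 in CKO mTBI. The first replicate was the highest in each injured group and the groups overlapped. Its log2 difference was 0.20 (SE 0.17, 95% interval -0.17 to 0.56) with an adjusted p of 0.624 in WT mTBI and -0.03 without WT mTBI replicate 1. Without WT mTBI replicate 1, the genes whose WT mTBI libraries all lay below the sham-labelled ones numbered 7 of the 10 rather than 4, with Vgf, Scg2 and Nrn1 added. Without CKO mTBI replicate 1, the corresponding number for CKO mTBI was 6 rather than 3, with Vgf, Nptx2 and Scg2 added. In WT mTBI replicate 3, Scg2 was at 160.57 CPM, just below the lowest sham-labelled library at 160.74. Fewer libraries separate more easily by themselves, and shares of all tested genes are not given for these sets, so the added genes cannot be read as a result.

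Of 13 other genes for granins and for the processing of dense-core vesicle cargo, 0 passed in any comparison (3, 1 and 1 at an unadjusted p under 0.05 in edgeR), with medians of 0.04 in WT mTBI against the sham-labelled libraries and -0.08 in CKO mTBI against WT mTBI. Scg5, which encodes the chaperone 7B2 of prohormone convertase PC2, had the lowest p-value of the list in WT mTBI. It stood at 109, 105 and 105 CPM in the sham-labelled libraries, 353, 233 and 225 in WT mTBI and 243, 97.1 and 118 in CKO mTBI. The WT mTBI libraries and CKO mTBI replicate 1 were above the sham-labelled level, and CKO mTBI replicates 2 and 3 were close to it. The log2 difference was 1.35 (SE 0.29, 95% interval 0.71 to 1.99) with an adjusted p of 0.0716 in WT mTBI against the sham-labelled libraries and -0.83 in CKO mTBI against WT mTBI (adjusted p = 0.732). DESeq2 and voom called the first of these. Pcsk1n, an inhibitor of prohormone convertase 1, differed by 0.36 in the first comparison (adjusted p = 0.343), and Pcsk1, which encodes that convertase, by -0.27 in the second (adjusted p = 0.732).

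Nptx1, the gene for neuronal pentraxin 1 (ENSMUSG00000025582, GRCm38 chr11:119538719-119547753, minus strand), was measured at 611, 618 and 614 CPM in the sham-labelled libraries. The WT mTBI libraries held 478, 610.1 and 483 CPM and the CKO mTBI libraries 539, 628 and 619 CPM. All WT mTBI libraries were below the sham-labelled ones, replicate 2 only just, and the CKO mTBI libraries lay on both sides. Log2 differences were -0.23 (SE 0.10, 95% interval -0.45 to -0.01) with an adjusted p of 0.356 in WT mTBI, -0.04 in CKO mTBI against the sham-labelled libraries (adjusted p = 0.999) and 0.19 (SE 0.10, 95% interval -0.03 to 0.41) with an adjusted p of 0.739 between CKO mTBI and WT mTBI. The first was -0.17 without WT mTBI replicate 1.

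Nptx2, the gene for the pentraxin also called Narp (ENSMUSG00000059991, GRCm38 chr5:144545902-144557478, plus strand), was at 21.0, 19.2 and 19.6 CPM in the sham-labelled libraries, 27.2, 20.2 and 24.6 in WT mTBI and 20.2, 12.8 and 16.0 in CKO mTBI. The 2 highest libraries were WT mTBI and the 2 lowest CKO mTBI, while CKO mTBI replicate 1 was level with WT mTBI replicate 2. Nptx2 had the lowest unadjusted p of the 10 genes between CKO mTBI and WT mTBI (0.00507 in the edgeR quasi-likelihood test). Its log2 difference there was -0.55 (SE 0.16, 95% interval -0.90 to -0.20) with an adjusted p of 0.732, a level 31.8% lower in CKO mTBI. The difference did not pass under any alternative tried, with adjusted p from 0.0638 to 0.935. Against the sham-labelled libraries it was 0.26 in WT mTBI and -0.29 in CKO mTBI (adjusted p = 0.487 and 0.817). Whether the 2 pentraxin genes differed from each other in their response was not tested.

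Of 8 genes for partners of the pentraxins, 0 passed in any comparison, 3, 0 and 0 reached an unadjusted p under 0.05 (edgeR), and the median log2 difference was -0.11 in WT mTBI against the sham-labelled libraries. The AMPA receptor subunit genes Gria1 and Gria2 had the lowest p-values of the list. Gria1 held 1312, 1328 and 1293 CPM in the sham-labelled libraries, 1038, 1219 and 1031 in WT mTBI and 1082, 1292 and 1277 in CKO mTBI, and its log2 difference in WT mTBI was -0.26 (adjusted p = 0.257). Gria2 held 989, 961 and 957, then 718, 897 and 792, then 829, 909 and 945 CPM in the same order, with a difference of -0.27 (adjusted p = 0.227). All injured libraries of both genes were below all sham-labelled ones.

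Nrn1, the neuritin gene (ENSMUSG00000039114, GRCm38 chr13:36725361-36735131, minus strand), had the smallest SD of the 10 relative to its mean over the 9 libraries. It held 118, 118 and 115 CPM in the sham-labelled libraries, 130.0, 113 and 106 in WT mTBI and 110.1, 113 and 118 in CKO mTBI. The groups overlapped throughout. Log2 differences were -0.01 (SE 0.08, 95% interval -0.19 to 0.17) with an adjusted p of 0.973 in WT mTBI against the sham-labelled libraries and -0.03 (SE 0.08, 95% interval -0.21 to 0.15) with an adjusted p of 0.922 between CKO mTBI and WT mTBI. In GENCODE M21, the protein-coding gene Fars2, on the opposite strand, shares 501 of the 2249 exon bases of Nrn1. If the annotation used for counting holds this overlap, the count of Nrn1 too leaves out part of the gene.

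Inhba (ENSMUSG00000041324, GRCm38 chr13:16011851-16031621, plus strand) had the largest estimated differences of the 10 from the sham-labelled libraries and, over the 9 libraries pooled, the lowest mean CPM, with 171 to 368 counts per library. It held 8.17, 9.01 and 9.63 CPM in the sham-labelled libraries, 6.33, 4.46 and 4.46 in WT mTBI and 4.47, 6.39 and 5.57 in CKO mTBI. All 6 injured libraries lay below all 3 others and the injured groups overlapped. Means were 8.94 ± 0.730 CPM in the sham-labelled libraries, 5.08 ± 1.08 in WT mTBI and 5.48 ± 0.965 in CKO mTBI (SD, n = 3 each). The log2 difference was -0.81 (SE 0.18, 95% interval -1.21 to -0.41) with an adjusted p of 0.0809 in WT mTBI, a level 43.1% lower, and -0.71 (SE 0.18, 95% interval -1.10 to -0.31) with an adjusted p of 0.247 in CKO mTBI, 38.7% lower. Between CKO mTBI and WT mTBI it was 0.11 (SE 0.18, 95% interval -0.29 to 0.51) with an adjusted p of 0.871. The WT mTBI difference passed without WT mTBI replicate 1 (-1.003, adjusted p = 0.0359) and without CKO mTBI replicate 1 (-0.81, adjusted p = 0.0484), and over all alternatives the adjusted p ranged from 0.00185 to 1. In CKO mTBI replicate 1, whose choroid plexus and ependyma markers summed to 243 CPM, near the sham-labelled level, Inhba was at 4.47 CPM and Bdnf at 30.4 CPM, both below every sham-labelled library. The median of those markers in this library, relative to the sham-labelled mean, was 0.01 on the log2 scale. One of them, Otx2, was at 5.23 CPM there, above the 0.571 to 1.10 CPM of the sham-labelled libraries. The summed markers of thalamus, striatum and cortex were higher, and those of neurons lower, in all 6 injured libraries than in the sham-labelled ones. Such sums follow the most abundant genes, and single markers went both ways. Of the 8 markers of thalamus, striatum and cortex, 2 had lower estimates in WT mTBI and 3 in CKO mTBI than in the sham-labelled libraries. Of the 9 neuron markers, 4 had higher estimates in WT mTBI and 3 in CKO mTBI. The part of these markers and of those of choroid plexus and ependyma in the differences of Bdnf, Ntrk3 and Inhba was not tested.

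Of 15 other genes of the activin and inhibin pathway, 0 passed in any comparison (3, 1 and 3 at an unadjusted p under 0.05 in edgeR), with a median log2 difference of -0.02 in WT mTBI against the sham-labelled libraries. Acvr1c, which encodes the type I receptor ALK7, held 21.2, 20.5 and 21.2 CPM in the sham-labelled libraries, 14.2, 17.3 and 13.7 in WT mTBI and 15.7, 17.8 and 17.5 in CKO mTBI. Every injured library was below every sham-labelled one, with a log2 difference of -0.47 in WT mTBI (adjusted p = 0.086). Igsf1, an immunoglobulin superfamily gene first described as an inhibin-binding protein, held 9.81, 9.86 and 8.84 CPM, then 12.8, 13.8 and 17.0 in WT mTBI and 17.7, 11.2 and 13.6 in CKO mTBI. Its injured libraries were all higher, with a difference of 0.61 in WT mTBI (adjusted p = 0.153). DESeq2 and voom called both of these differences. Between CKO mTBI and WT mTBI, the activin antagonist gene Fstl3, at under 1 CPM in every library, differed by 0.72, and the inhibitory Smad gene Smad7 by 0.20 (adjusted p = 0.732 and 0.732).

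**Figure D3:**
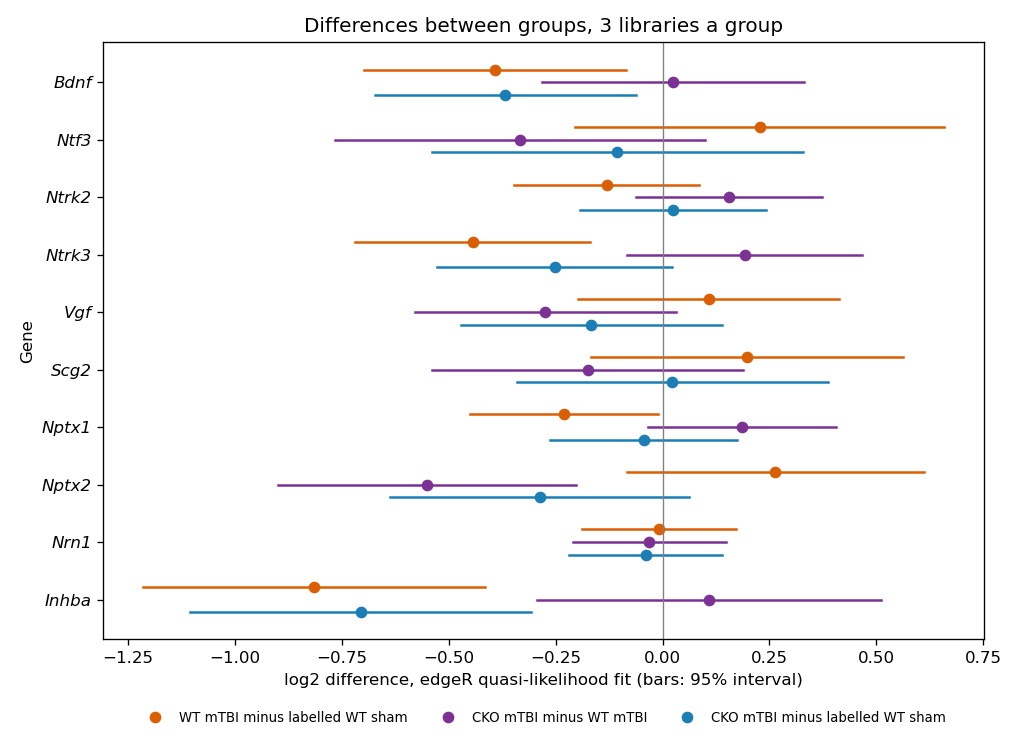
Log2 differences of the 10 genes in the 3 comparisons, with 95% intervals from the edgeR fit (3 libraries a group). The intervals of Bdnf and Inhba lie below 0 against the sham-labelled libraries in both injured groups, and in CKO mTBI minus WT mTBI only that of Nptx2 leaves out 0; these intervals are not adjusted for the number of genes.

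The knockout comparison, CKO mTBI against WT mTBI, asked whether loss of Tmsb4x altered these genes after injury. In it, 0.015% of all tested genes passed. None of the 10 genes had groups that did not overlap, beside 9.72% of all tested genes, and 1 (Nptx2) reached an unadjusted p under 0.05 in the edgeR test, beside 6.60% of all tested genes. Estimates were higher in CKO mTBI for 5 genes (Bdnf, Ntrk2, Ntrk3, Nptx1 and Inhba) and lower for 5 (Ntf3, Vgf, Nptx2, Scg2 and Nrn1), with a median of 0.00. The widest of the 95% intervals was that of Ntf3, -0.76 to 0.10, and the narrowest that of Nrn1, -0.21 to 0.15, on the log2 scale. Differences of Bdnf between the injured groups from -0.28 to 0.33 were compatible with these libraries.

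Immediate early genes, transcribed within minutes of neuronal activity and in part upstream of the late genes described here, were followed in the same libraries. Of 22 such genes, 0 passed in WT mTBI against the sham-labelled libraries, 14 had higher estimates, 9 reached an unadjusted p under 0.05 (edgeR) and the median log2 difference was 0.28. Over all tested genes, 53.0% had higher estimates, 13.2% reached that p and the median was 0.02. By library, the median of the 22 genes relative to the sham-labelled mean, on the log2 scale, was 0.58, -0.01 and 0.08 in WT mTBI replicates 1, 2 and 3, and -0.20, -0.13 and 0.05 in CKO mTBI. Arc, a postsynaptic effector, held 60.8, 59.4 and 61.6 CPM in the sham-labelled libraries, 146, 68.4 and 102 in WT mTBI and 60.1, 69.8 and 79.2 in CKO mTBI (WT mTBI difference 0.80, adjusted p = 0.135). WT mTBI replicate 1, the highest library for Ntf3, Vgf, Scg2, Nptx2 and Nrn1, was also the highest for Arc. Ntf3, Vgf, Scg2, Nptx2 and Nrn1 have the shortest exon models of the 10 genes, 1714 to 2973 bases. WT mTBI replicate 1 was also the library whose counts declined with exon length (rank correlation -0.29). The part of that trend in these values was not tested. Bdnf had the same order among the WT mTBI libraries as Arc, replicate 1 highest and replicate 2 lowest, but its replicate 1, at 40.1 CPM, lay below the sham-labelled libraries, where that of Arc lay above them. In CKO mTBI against WT mTBI, 21 of the 22 genes had lower estimates, with a median of -0.24 and 0 passing. Of the 22, 9 reached an unadjusted p under 0.05 (edgeR). Over all tested genes, 50.2% had higher estimates, 6.60% reached that p and the median was 0.00. These estimates include WT mTBI replicate 1, whose list median was 0.58 beside -0.01 and 0.08 in replicates 2 and 3. The 21 of 22 and the 9 are not given without that library or with the length trend removed. DESeq2 called 4 of the 22 in WT mTBI against the sham-labelled libraries (Arc, Egr2 and Fos higher, Homer1 lower) and voom 1 (Homer1). In this comparison both tools also called more of all genes than edgeR did, with the numbers given at the end. Egr2 and Fos, like Arc, were highest in WT mTBI replicate 1, at 5.64 and 15.3 CPM. Both tools called Nr4a2 lower in CKO mTBI than in WT mTBI. That difference of Nr4a2 also passed in edgeR with the length trend removed (adjusted p = 0.0392), without a filter on low counts (0.00514), without WT mTBI replicate 1 (0.0342) and without both first replicates (0.0125), while over the other alternatives its adjusted p reached 0.935.

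Against the sham-labelled libraries, 2 of the 22 genes fell in CKO mTBI, beside 0.0699% of all tested genes that passed in either direction. Nr4a2, a nuclear receptor transcription factor, held 55.7, 54.2 and 51.8 CPM in the sham-labelled libraries, 53.3, 53.9 and 54.0 in WT mTBI and 39.4, 37.2 and 37.4 in CKO mTBI. The CKO mTBI libraries stood below the other 6, with log2 differences of -0.50 (SE 0.07, 95% interval -0.65 to -0.36) with an adjusted p of 0.0214 against the sham-labelled libraries and -0.50 (SE 0.07, 95% interval -0.65 to -0.35) with an adjusted p of 0.0575 against WT mTBI (edgeR). Homer1, a postsynaptic scaffold gene with an activity-induced short form, held 121, 119 and 114 CPM, then 94.97, 99.5 and 92.8 in WT mTBI and 75.3, 83.1 and 87.7 in CKO mTBI. Its 3 groups did not overlap, and its log2 difference in CKO mTBI against the sham-labelled libraries was -0.53 (SE 0.07, 95% interval -0.69 to -0.36) with an adjusted p of 0.0299. Both calls were lost without any 1 of the sham-labelled libraries, at adjusted p from 0.132 to 0.258 for Nr4a2 and from 0.2 to 0.299 for Homer1. With the sham-labelled libraries summed to 1 sample, both were at an adjusted p of 1. They were also lost without CKO mTBI replicate 3 (adjusted p = 0.131 and 0.0781) and with the replicate number as a block (adjusted p = 0.0771 and 0.0893), and that of Homer1 also without CKO mTBI replicate 2 (adjusted p = 0.0737) and with the length trend removed (adjusted p = 0.0649). Of 19 tested late-response genes other than the 10, 0 passed in any comparison (1, 5 and 2 at an unadjusted p under 0.05 in edgeR), with medians of 0.01 in WT mTBI against the sham-labelled libraries and -0.17 in CKO mTBI against WT mTBI. Named by the lowest p-values, Cartpt, which encodes the CART neuropeptide precursor, and Rheb, a small GTPase gene upstream of mTORC1, differed by 1.11 and 0.20 in the first comparison (adjusted p = 0.291 and 0.404). Ptgs2, the gene for cyclooxygenase-2, and Gpr3, an orphan receptor gene, differed by 0.40 and -0.57 in the second (adjusted p = 0.732 for each).

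**Figure D4:**
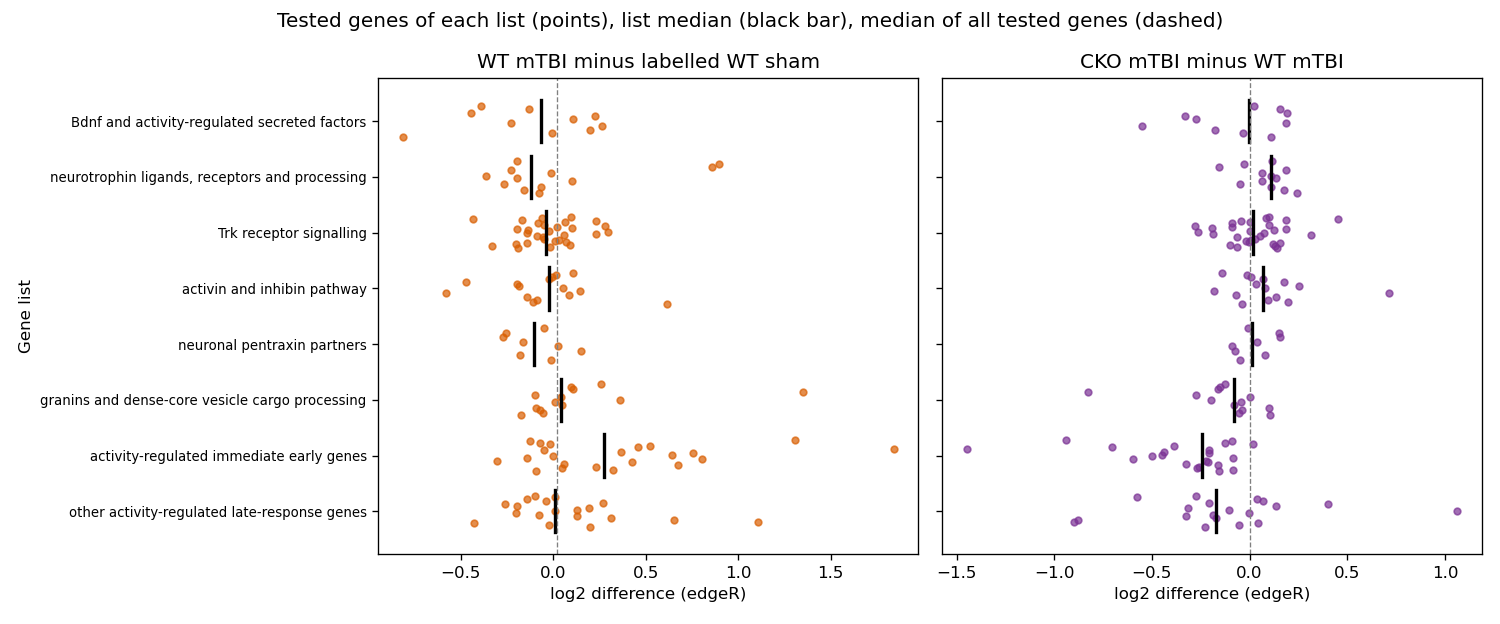
Log2 differences (edgeR) of the tested genes of 8 lists in WT mTBI minus the sham-labelled libraries (left) and CKO mTBI minus WT mTBI (right); each point is a gene, black bars are list medians and the dashed line is the median of all tested genes. The 22 immediate early genes have a median of 0.28 on the left and -0.24 on the right, and the 10 genes followed here medians of -0.07 and 0.00. Both sides include WT mTBI replicate 1. Relative to the sham-labelled mean, the median of the 22 genes was 0.58 in that library and -0.01 and 0.08 in WT mTBI replicates 2 and 3.

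The genes most like 4 of the 10 across the 9 libraries were found by the root mean square difference of centred log2 CPM, among genes whose counts averaged 20 or more and whose SD was no smaller than that of the gene divided by 2; smaller values mean closer profiles. For Bdnf they were Sag (0.0949), Gm37607 (0.117) and Washc3 (0.117). Those of Vgf were 2810001G20Rik (0.0559), Metrn (0.0618) and Pla2g7 (0.0629), and those of Nptx2 were Fxyd7 (0.0998), Ddah2 (0.102) and Ddit4l (0.111). Inhba was followed by Mthfsl (0.133), Tmod3 (0.167) and G730003C15Rik (0.194), of which Tmod3 encodes an actin filament capping protein. The values share libraries and scaling, and they are given as a description without a test.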

How the data were processed

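RNA of sorted hippocampal cells was sequenced as paired 150-base reads. The deposited table holds raw counts per Ensembl gene for 9 libraries, made by the authors with featureCounts 2.0.6 on Ensembl release 98 (GRCm38), per the file header; the header's options count each mate singly, ignore strand and drop reads that map to several places or to several genes. FastQC, Trim Galore, HISAT2, SAMtools and MultiQC are named in the submitters' processing notes.

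Samples were grouped by their titles. Counts were scaled by TMM, filtered with filterByExpr (20032 of 55421 genes kept) and tested with edgeR 4.0.16 (quasi-likelihood, 1 factor of 3 groups over all 9 libraries, common coefficient of variation 15.3%), with Benjamini-Hochberg adjustment over all tested genes and a threshold of 0.05. CPM are counts per TMM-scaled library size; log2 values use a prior count of 2. Exon lengths, positions and overlaps between genes are from GENCODE M21, and promoter sequences from RefSeq (GRCm38.p6). GENCODE M21 held a model for 55154 of the 55421 genes, so it was not identical to the annotation used for counting. The test was tried on simulated counts with 200 changed genes. Single genes were also compared by exact permutation with SciPy 1.17.1.

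Alternatives were RLE or no composition scaling, DESeq2 1.42.0, limma 3.58.1 (voom), other filters, other sets of samples, a replicate block, a length offset, totals without mitochondrial and haemoglobin genes, and counts divided by 2. Numbers of genes below every sham-labelled library under other scalings and libraries were added after the values were seen. The 10 genes, the other lists and the alternatives were chosen with earlier results of these data known. All 10 genes are named; from each other list, the 2 genes with the lowest p in each of the first 2 comparisons and every gene that passed.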

Additional observations from a re-analysis of the deposited data

How the results depend on the processing

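Over the 3 comparisons and the alternatives run, 643 of the alternative values of the 10 genes kept their direction and their side of an adjusted p of 0.05, 16 kept their direction and passed, and 31 changed sign. The sign changes concerned values within the spread of the libraries, and apart from those stated below the cause was not tested. Passing values in WT mTBI against the sham-labelled libraries, all lower, were those of Ntrk3 and Inhba (2 genes) under DESeq2 and without a filter on low counts, of Bdnf, Ntrk3 and Inhba (3 genes) under voom with sample quality weights and with WT mTBI replicate 1 and CKO mTBI replicate 1 left out together, and 0 to 2 genes with 1 library left out. In CKO mTBI against the sham-labelled libraries, 1 gene (Inhba, lower) passed under DESeq2, under voom and without a filter. None of the 10 passed between CKO mTBI and WT mTBI under any alternative run. With both first replicates left out, 5 rather than 3 genes lay below every sham-labelled library in all injured libraries. With 1 library left out the numbers ranged from 4 to 7 for WT mTBI and from 3 to 6 for CKO mTBI. Shares of all tested genes are not given for these sets, and fewer libraries separate more easily by themselves.

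Over all genes, 102, 3 and 14 passed in WT mTBI against the sham-labelled libraries, CKO mTBI against WT mTBI and CKO mTBI against the sham-labelled libraries. In the same order the numbers were 541, 18 and 226 under DESeq2, 676, 68 and 387 without a filter, 253, 1 and 71 with only the 6 samples compared, 1, 1 and 0 with the sham-labelled samples summed to 1, and 523, 24 and 337 without both first replicates. Under voom they were 722 and 279 in the first and the last, and a stricter filter gave 64 in the first. Leaving out 1 library gave 5 to 252, 2 to 7 and 2 to 128. For the first comparison these included 5, 5 and 9 without sham-labelled replicates 1, 2 and 3, 26 without WT mTBI replicate 3, and 252 and 40 without CKO mTBI replicates 1 and 3. The second gave 5 and 7 without WT mTBI replicates 1 and 3. The last gave 4, 2 and 5 without the sham-labelled replicates, 56 without WT mTBI replicate 1, and 128, 26 and 5 without the CKO mTBI replicates. Summing the sham-labelled libraries leaves 1 sample in that group, which was assumed to vary like the others.

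Log2 values that changed sign, in WT mTBI against the sham-labelled libraries, were 0.078 for Ntrk2 with the length trend removed (0.078 with the replicate block as well), -0.050 for Vgf under voom, and -0.082 for Vgf and -0.034 for Scg2 without both first replicates. With 1 library left out, Vgf ranged from -0.082 to 0.20, Scg2 from -0.034 to 0.29 and Nrn1 from -0.096 to 0.048. Between CKO mTBI and WT mTBI they were -0.0064 for Bdnf and 0.026 for Nrn1 with the length trend removed (0.027 for Nrn1 with the replicate block as well), 0.0087 for Scg2 and 0.049 for Nrn1 under voom, and 0.080 for Nrn1 without both first replicates. Leave-one-out ranges were -0.088 to 0.24 for Bdnf, -0.34 to 0.057 for Scg2, -0.090 to 0.057 for Nrn1 and -0.014 to 0.30 for Inhba. In CKO mTBI against the sham-labelled libraries they were -0.0033 for Scg2 with the replicate block, -0.00047 with the length trend removed and -0.021 with both, and, without both first replicates, 0.077 for Ntf3, 0.022 for Nptx1 and -0.14 for Scg2. Leave-one-out ranges were -0.014 to 0.050 for Ntrk2, -0.24 to 0.077 for Ntf3, -0.089 to 0.022 for Nptx1 and -0.14 to 0.12 for Scg2.

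No pairing by replicate number was seen. Libraries of the injured groups with the same number had correlations of their deviations from the group means of 0.073, 0.01 and -0.089. Those with different numbers ranged from -0.114 to 0.123. So few libraries cannot settle whether samples were paired. With the replicate number as a replicate block, 107, 3 and 13 genes passed in the 3 comparisons and 0 of the 10 in each. Ntf3 and Inhba had under 400 counts in every library, which limits the precision of their values.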
